A study of Mus musculus with 8 samples.

Results

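The results below concern 10 mouse genes of lipid scavenging, intracellular fatty acid transport and lipid droplets, out of 34432 genes in the deposited table. They were selected by symbol alone, and each symbol matched 1 row. Transcripts were measured in macrophages grown from bone marrow and collected, untreated, on day 7 of culture. Controls (4 libraries) carried the Vav-Cre recombinase, whose promoter is active in blood-forming cells. Double knockouts (4 libraries) combined Vav-iCre and a floxed Cdk8 gene with a null Cdk19. Both are kinases of the Mediator complex, which links transcription factors to RNA polymerase, and a Vav-driven Cre was present in both groups. The labels do not state the age, sex or strain of the mice, the kind of Cdk19 null allele, or whether libraries of a group came from separate animals. P-values therefore measure the spread between these libraries, which may be technical. RNA came from whole cultures, so fewer cells of a type and less RNA per cell cannot be told apart.

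Macrophages take up modified lipoproteins through scavenger receptors and native ones through endocytic lipoprotein receptors. Lipoprotein lipase, which macrophages secrete, frees fatty acids from triglycerides outside the cell, and small binding proteins carry fatty acids inside it. Excess lipid is stored as triglyceride and cholesteryl ester in droplets coated by perilipins, the hallmark of foam cells in atherosclerosis. Cd36, Fabp4 and Plin2 are textbook targets of PPAR nuclear receptors, and Lpl and Pltp of the liver X receptors.

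Of the 10 genes, 9 were tested, 4 rose, 2 fell and 3 did not pass. Fabp5 and Fabp4, the fatty acid carriers, rose most, at 8.43-fold and 4.03-fold by group means. The scavenger receptor gene Cd36 rose 2.17-fold and the droplet coat gene Plin2 1.42-fold. Lpl, the secreted lipase, and Lrp1, a large endocytic receptor, fell 1.63-fold and 1.77-fold. Msr1, Scarb1 and Pltp differed by less than 1.2-fold at either end of their 95% intervals, and Vldlr was barely read. Calls were common in this comparison: 46.6% of 11675 tested genes passed (limma, Benjamini-Hochberg adjusted p under 0.05), 22.9% higher and 23.8% lower. The groups did not overlap for 6 of the 10 genes, beside 42.9% of all tested genes (21.2% higher and 21.7% lower). The median log2 fold change was 0.11 over the 9 tested genes and 0.01 over all tested genes.

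The libraries held 17856715 to 21353207 reads. Replicates were not equally close: the chi-square per gene was 7.93 for double knockouts 1 and 2 and 9.01 for 3 and 4, against 18.6 to 25.3 across these pairs, and 36.2 for controls 1 and 4. Cdk19 read 1295 to 1682 in controls and 342 to 396 in double knockouts. Cdk8 read 408 to 466 and 294 to 429, with double knockout 1 inside the control range. A total over the gene cannot show whether its floxed part was removed. Macrophage markers were abundant, with all 12 tested, and summed to 389706 to 422247 normalized reads in controls and 346601 to 370633 in double knockouts. Of these 12, 7 rose and 5 fell. Monocyte markers, with Cx3cr1, Ccr2 and Chil3 highest by the mean over all 8 libraries, summed to 15603 to 16357 against 3004 to 3710, with 5 of 10 lower and 1 higher, and neutrophil markers to 2016 to 3576 against 503 to 815, with 9 of 12 lower. These falls were in the same libraries as every result below, and their part in them was not tested. Adipocyte genes, relevant because Fabp4, Lpl and the perilipins are abundant in fat cells, were nearly absent: 7 of 10, Adipoq, Lep and Cidec among them, had no read in any library, Plin1 averaged 0.277 and 0, and the list's sum of 383 to 512 and 390 to 413 came almost wholly from Lipe. Of the endothelial markers 4 of 10 were at 0, with sums of 147 to 272 and 169 to 280. Of 10 dendritic cell markers 8 averaged under 10, and of 10 fibroblast markers 7 did, with sums of 243 to 355 and 112 to 299 for the latter. Summed dendritic markers read 10199.7 to 14432 and 17740.5 to 20535, almost all from Bst2, which macrophages also express.

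**Figure D1:**
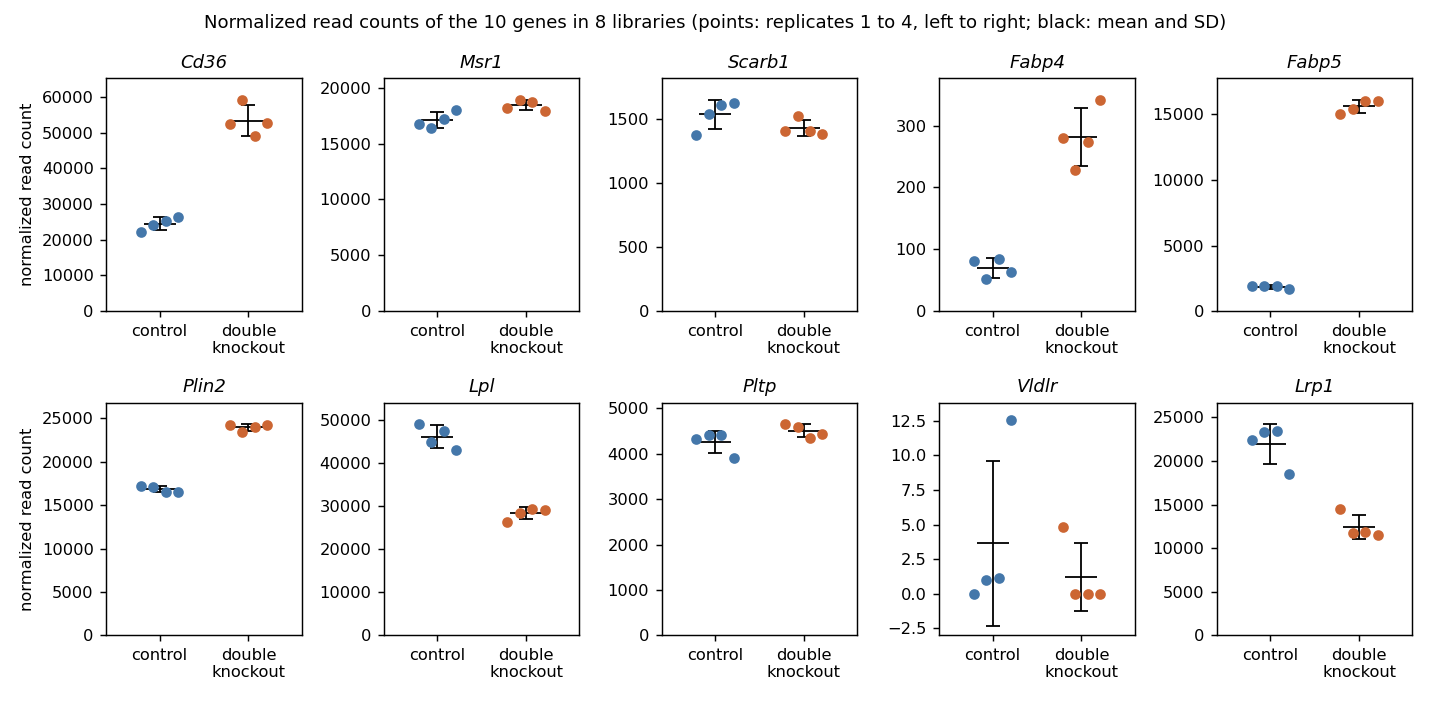
Normalized read count of each of the 10 genes (vertical axis, linear) in 4 control and 4 double knockout libraries. Points are replicates 1 to 4 from left to right, and the black bar is the mean with its SD. All 4 double knockouts lie above all controls for Cd36, Fabp4, Fabp5 and Plin2 and below them for Lpl and Lrp1, while the groups overlap for Msr1, Scarb1, Pltp and Vldlr.

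Promoter windows from RefSeq (GRCm38.p6, the same assembly as mm10) were found for 5 of the 10 genes: Cd36, Plin2, Lrp1, Pltp and Vldlr. The sequences of 2 genes that rose and 1 that fell are given because they let the reader see the DNA just before the start of genes that moved in opposite directions. Each runs 5′ to 3′ over the 250 bases before the RefSeq start site, and all 3 genes lie on the minus strand. Capitals mark the nuclear receptor half-site AGGTCA, read on either strand, so that TGACCT is its form on the opposite strand.
Cd36, chr5:17835897-17836146: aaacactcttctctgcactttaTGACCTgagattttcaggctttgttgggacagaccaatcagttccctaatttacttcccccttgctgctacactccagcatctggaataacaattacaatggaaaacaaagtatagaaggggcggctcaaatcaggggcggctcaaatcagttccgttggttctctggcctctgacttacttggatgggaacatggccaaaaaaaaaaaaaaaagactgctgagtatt
Plin2, chr4:86670060-86670309: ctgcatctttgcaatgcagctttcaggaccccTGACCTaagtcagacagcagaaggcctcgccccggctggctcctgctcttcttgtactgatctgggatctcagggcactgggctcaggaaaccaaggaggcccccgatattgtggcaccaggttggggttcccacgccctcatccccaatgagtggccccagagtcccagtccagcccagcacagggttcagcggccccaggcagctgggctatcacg
Lrp1, chr10:127621149-127621398: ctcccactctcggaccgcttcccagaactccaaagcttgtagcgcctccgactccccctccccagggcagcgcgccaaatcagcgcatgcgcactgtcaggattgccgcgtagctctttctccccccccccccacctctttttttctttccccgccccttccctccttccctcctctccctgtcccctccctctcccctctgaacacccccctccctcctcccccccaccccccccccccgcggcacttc

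Cd36 and Plin2 each held 1 half-site, beginning 228 and 218 bases before the start, and no half-site was found in the windows of Lrp1, Pltp or Vldlr, searched from 250 bases before to 50 after the start. The half-site AGGTCA was present in 16.3% of 32851 windows of that length over all genes. Direct repeats of AGGTCA with 1 base between (known for PPAR receptors) and with 4 bases between (known for liver X receptors) were present in 0.0396% and 0.0152% of windows and in none of these genes' windows. An E-box, CACGTG, began 4 bases before the Plin2 start and was present in 7.15% of windows. The sterol element TCACNCCAC (1.24% of windows), searched on both strands like the rest, was in none of the 6 windows of the 5 genes. GC content over the 250 bases was 43.2% for Cd36, 61.6% for Plin2 and 67.2% for Lrp1, beside a median of 52.4% over the same 250 bases of all windows. The Cd36 window lies inside the annotated Cd36 locus, which has further start sites upstream. These matches describe the letters in the windows and not binding.

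Cd36, a class B scavenger receptor that binds oxidized lipoproteins and long-chain fatty acids, lies on chromosome 5, 17781690 to 17888801 (all gene positions are mm10, GENCODE M21). Its normalized read counts in controls 1 to 4 were 22281, 24203, 25288 and 26389. In double knockouts 1 to 4 they were 52578, 59285, 48947 and 52620. The lowest double knockout thus stood far above the highest control. The means were 24540.2 ± 1751 (SD, n = 4) and 53357.5 ± 4311, a log2 fold change of 1.12 (SE 0.07, limma adjusted p = 1.99e-07). As a share of all reads in a library, Cd36 took 0.111% to 0.136% in controls and 0.234% to 0.293% in double knockouts.

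Msr1, the class A scavenger receptor for modified low-density lipoprotein, lies on chromosome 8, 39581685 to 39642673. Controls read 16755, 16381, 17251 and 18018, and double knockouts 18225, 18951, 18778 and 17895. The groups met at control 4 and double knockout 4. The log2 fold change was 0.11 (95% interval -0.01 to 0.23, adjusted p = 0.110 by limma), a fold between 0.996 and 1.17. Without control 4 the value was 0.14 and passed (adjusted p = 0.0456 by limma).

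Scarb1, a class B receptor that takes cholesteryl ester from high-density lipoprotein, lies on chromosome 5, 125277087 to 125341094. Controls read 1378, 1537, 1610.2 and 1631, and double knockouts 1411, 1525, 1411 and 1388, so the double knockouts lay within the control range. Its log2 fold change was -0.10 (95% interval -0.26 to 0.06, limma adjusted p = 0.281). Thus 1 of the 3 scavenger receptors rose. The log2 ratio of Cd36 to Msr1, per kilobase of exon, was 1.34 ± 0.07 in controls and 2.35 ± 0.11 in double knockouts (n = 4 each). That is a difference of 1.01 (exact permutation, two-sided, p = 0.0286, which no split of 4 and 4 libraries can undercut). It was 1 of 6 ratios and shares compared, all listed here and chosen with these data known. Each of the 6 had this p, which was 0.0286 also after adjustment over them. For all 6, the ranges of the single genes within each group already fixed this p. It therefore adds nothing to the values of the single genes.

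Fabp5, a carrier known from epidermis and macrophages, lies on chromosome 3, 10012548 to 10016607, on the plus strand. Controls read 1922, 1947, 1899 and 1650.0, and double knockouts 15028, 15407, 16028 and 16055. Control 4 was the lowest control, and the double knockouts differed little among themselves. The means were 1855 ± 138 and 15629 ± 501 (n = 4 each), a log2 fold change of 3.08 (SE 0.06, limma adjusted p = 6.87e-11). Ordered by rise, Fabp5 was number 46 of the 11675 tested genes. Mouse Fabp5 has near-identical copies. A search of GENCODE transcripts found 5 genes at least 90% identical to it over at least 200 bases, and these held at most 7 reads each over all 8 libraries, against 70697 for Fabp5. The processing notes name Salmon, so these reads are its assignments, and how it divided reads shared by such copies was not tested.

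Fabp4, the carrier known as adipocyte protein 2 and also made by macrophages, lies on the same chromosome at 10204088 to 10208576, on the minus strand. Controls read 80.6, 51.2, 84.3 and 62.7, and double knockouts 279.6, 228.2, 274 and 342. All double knockouts lay above all controls at a level far below that of Fabp5. The means were 69.7 ± 15.5 and 281 ± 46.8 (n = 4 each), a log2 fold change of 2.01 (SE 0.19, limma adjusted p = 5.27e-06). Its spread was the widest of the 9 tested genes, with a coefficient of variation of 22.3% in controls and 16.7% in double knockouts. The rise of Fabp5 was larger than that of Fabp4: their log2 ratio per kilobase went from 5.09 ± 0.34 to 6.14 ± 0.22 (n = 4 each, exact permutation p = 0.0286).

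The 2 carrier genes lie 187.48 kilobases apart in a cluster of related genes. Between them and just beyond, Pmp2 and Fabp9 had no read in any library, and Fabp12 averaged 0 and 0.974. The nearest genes beyond Fabp12 that had reads, which encode no fatty acid carrier, had smaller fold changes: Impa1 read 1318 ± 47.3 and 1489 ± 58.4 (log2 0.18, limma adjusted p = 0.0389) and Zfand1 175.6 ± 10.2 and 234.7 ± 20.7 (log2 0.41, adjusted p = 0.0149). Impa1 did not pass when any of 6 of the 8 libraries was left out (limma adjusted p of 0.0595 to 0.0987). These neighbours were looked at because of their position, after the values were seen.

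Elsewhere in the genome, 2 more carriers were read. Fabp3, the heart-type carrier, rose from 64.6 ± 5.75 to 179 ± 21.4 (log2 1.45, limma adjusted p = 1.70e-05). Fabp7, the brain-type carrier, fell from 568 ± 105 to 375 ± 42.4 (log2 -0.59, adjusted p = 0.00374). Per kilobase of exon, Fabp5 made up 48.8% ± 2.99 of the 4 Fabp genes in controls and 88.3% ± 1.14 in double knockouts (n = 4 each, exact permutation p = 0.0286). Fabp7 went from 42.3% ± 3.42 to 6.04% ± 0.613. By these lengths Fabp4 stayed a minor part at 1.46% ± 0.300 and 1.26% ± 0.177. The exon unions were 3567 bases for Fabp5 and 4489 for Fabp4, against 823 for Fabp3 and 1250 for Fabp7. That of Fabp4 spans its whole locus and that of Fabp5 most of it, so they may include retained introns. If they do, the shares of Fabp5 and Fabp4 are understated in both groups, which was not tested.

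**Figure D2:**
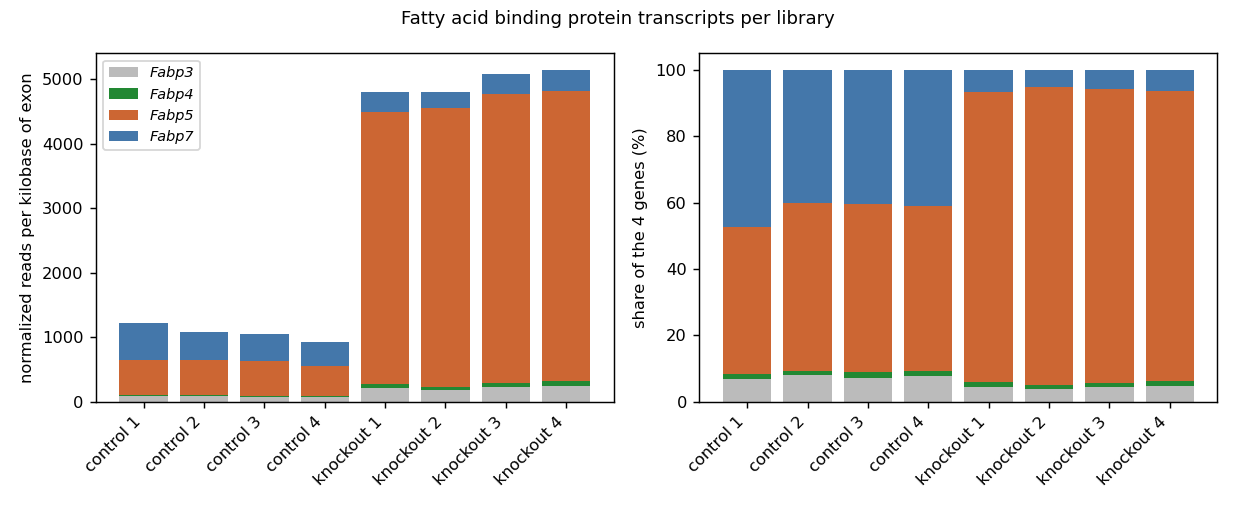
Stacked bars of Fabp3, Fabp4, Fabp5 and Fabp7 in each library (control 1 to 4, then double knockout 1 to 4, labelled knockout). The left axis gives normalized reads per kilobase of exon and the right panel the share of the 4 genes in percent. Fabp5 fills 87.4% to 89.9% of each double knockout bar and 44.4% to 50.7% of each control bar. These shares depend on the exon lengths used.

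Plin2, the perilipin that coats droplets in most cells outside fat tissue, lies on chromosome 4, 86648386 to 86670060. Controls read 17175, 17124, 16509 and 16524, and double knockouts 24272, 23403, 23974 and 24195. The spread within groups was the smallest of the 9 tested genes, with a coefficient of variation of 2.18% and 1.64%. The means were 16833 ± 366 and 23961 ± 393 (n = 4 each), a log2 fold change of 0.51 (SE 0.05, limma adjusted p = 5.69e-06). Plin3, a perilipin that is also found free in the cytosol, rose from 1084 ± 62.6 to 2041 ± 83.1 (log2 0.91, adjusted p = 5.84e-07 by limma). The log2 ratio of Plin2 to Plin3 per kilobase accordingly fell from 4.07 ± 0.11 to 3.66 ± 0.07 (n = 4 each, exact permutation p = 0.0286).

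Lpl lies on chromosome 8, 68880491 to 68907448. Controls read 49029.9, 44857, 47408 and 43031, and double knockouts 26373, 28366, 29416 and 29141. Every double knockout lay below every control. The means were 46082 ± 2662 and 28324 ± 1375 (n = 4 each), a log2 fold change of -0.70 (SE 0.06, limma adjusted p = 2.54e-06). Transcripts similar by the same limits came from 5 other genes, of which 3 were in the table, with at most 3905 reads each over all libraries against 298329 for Lpl. Cd36 and Lpl, both acting on the supply of fatty acids from outside, thus moved in opposite directions. Their log2 ratio per kilobase went from 0.64 ± 0.18 to 2.46 ± 0.15 (n = 4 each, exact permutation p = 0.0286). Like that of the other ratios, this p was fixed beforehand by the values of the single genes. Here neither gene overlapped between groups and their directions were opposite. It adds nothing to the calls of each gene.

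Lrp1, a receptor for remnant lipoproteins and many other ligands, lies on chromosome 10, 127538161 to 127621148. Controls read 22422, 23313, 23491 and 18523, and double knockouts 14476, 11789, 11895 and 11554. Control 4 and double knockout 1 lay apart from the rest of their groups, each on the side of the other group, and the groups still did not overlap. The means were 21937 ± 2324 and 12428 ± 1373 (n = 4 each), a log2 fold change of -0.82 (SE 0.09, limma adjusted p = 2.17e-05). Lrpap1, the chaperone that keeps ligands off this receptor family during its transport, rose from 3812 ± 406 to 4614 ± 347 (log2 0.28, adjusted p = 0.0183), although its groups overlapped and it did not pass without double knockout 3 (adjusted p = 0.0576 by limma). The log2 ratio of Lrp1 to Lrpap1 per kilobase went from 0.42 ± 0.08 to -0.68 ± 0.25 (n = 4 each, exact permutation p = 0.0286).

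Pltp, the phospholipid transfer protein of plasma, lies on chromosome 2, 164839518 to 164857711. Controls read 4317, 4414, 4413 and 3908, and double knockouts 4657, 4600.5, 4337 and 4436, with overlap. Its log2 fold change was 0.08 (95% interval -0.05 to 0.21, limma adjusted p = 0.286). The locus overlaps that of Ctsa, a lysosomal protease gene on the opposite strand, over 1515 bases. The labels do not say whether strand was used in counting. By the limits used for Fabp5, Ctsa was also the only gene with a similar transcript, 100% identical over 312 bases. Ctsa held 129898 reads over all libraries, against 35251 for Pltp. Ctsa rose from 14619 ± 814 to 17684 ± 1181 (log2 0.27, adjusted p = 0.00504 by limma), and its part in the Pltp values was not tested.

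Vldlr, a receptor for very low-density lipoprotein known mainly from muscle and fat, lies on chromosome 19, 27216484 to 27254231. The normalized reads were 0, 0.967, 1.11 and 12.5 in controls and 4.85, 0, 0 and 0 in double knockouts, so that 1 library of each group held most of them. The recovered reads came to 15 over the controls and 5 over the double knockouts, and 4 of the 8 libraries had none. It did not pass the filter on low values and was not tested. In a library with no read, up to 3 reads are allowed by counting error.

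**Figure D3:**
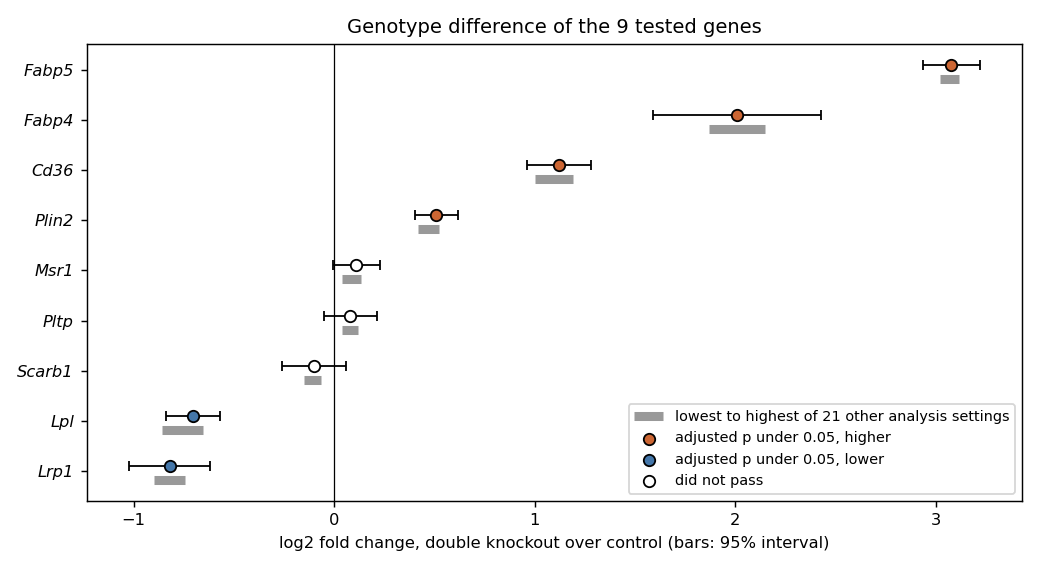
Log2 fold change of the 9 tested genes (horizontal axis, double knockout over control), with the 95% interval as a thin line. Filled points passed the test, and grey bars run from the lowest to the highest value over 21 other analysis settings. Fabp5 at 3.08 and Fabp4 at 2.01 lie farthest from 0, and Lpl at -0.70 and Lrp1 at -0.82 are the 2 that fell.

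Levels of different genes were compared per kilobase of the union of annotated exons. In controls the order was Cd36 at 6836 ± 488, Plin2 at 4793 ± 104, Lpl at 4398 ± 254, Msr1 at 2696 ± 111, Pltp at 1664 ± 94.0, Lrp1 at 1238 ± 131, Fabp5 at 519.9 ± 38.6, Scarb1 at 181 ± 13.5 and Fabp4 at 15.5 ± 3.46 normalized reads per kilobase (n = 4). No neighbours in this order overlapped between libraries, though Plin2 (lowest 4701) and Lpl (highest 4679) nearly met. In double knockouts Fabp5, at 4382 ± 140, came next after Cd36 at 14863 ± 1201 and Plin2 at 6823 ± 112. Msr1 (lowest 2821) and Lpl (highest 2807) were then neighbours that nearly met. By the longest transcript in place of the exon union, Lpl came first in controls (11199, before Plin2 at 8916 and Cd36 at 7219.8), and Fabp5 followed Msr1 in double knockouts (4827). There its range met that of Msr1, with a highest Fabp5 value of 4958 and a lowest Msr1 value of 4922. Cd36 was first among double knockouts by both lengths. However, both lengths of Fabp5 (3567 and 3238 bases) and Fabp4 (4489 and 4231) span most or all of their loci. If the reads came from shorter transcripts, the levels of Fabp5 and Fabp4 per kilobase are understated. Their places in these orders, and that of Cd36 before Fabp5 in double knockouts, are therefore uncertain.

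**Figure D4:**
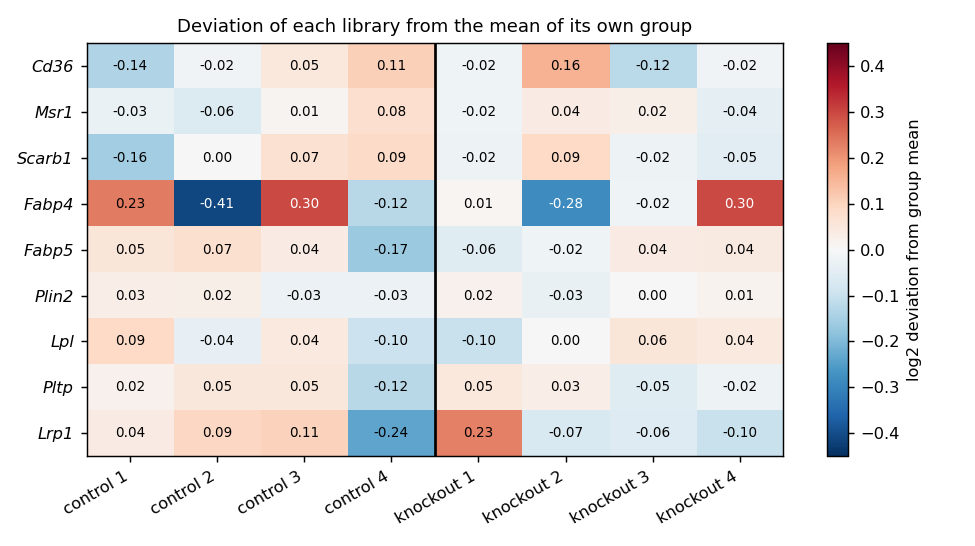
Deviation of each library from the mean of its own group on the log2 scale (colour and printed value), for the 9 tested genes in rows and the 8 libraries in columns. The largest deviations are those of Fabp4, from -0.41 to 0.30, and Lrp1 is at -0.24 in control 4 and 0.23 in double knockout 1.

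Within groups the genes did not move as one block. In controls the 3 scavenger receptor genes were highest in control 4 (deviations of 0.11 for Cd36, 0.08 for Msr1 and 0.09 for Scarb1 on the log2 scale). In the same library Fabp5 (-0.17), Lpl (-0.10), Pltp (-0.12) and Lrp1 (-0.24) were at their lowest. In double knockouts the same 3 receptor genes were highest in library 2 (0.16, 0.04 and 0.09). The split of the double knockouts into libraries 1 and 2 against 3 and 4 appeared in Fabp5 (-0.06 and -0.02 against 0.04 and 0.04), in Lpl (-0.10 and 0.003 against 0.06 and 0.04) and, the other way round, in Pltp (0.05 and 0.03 against -0.05 and -0.02). With libraries 1 and 2 alone as double knockouts the log2 fold change of Fabp5 was 3.04, and with 3 and 4 alone 3.12. For Lpl the values were -0.75 and -0.65, for Pltp 0.12 and 0.04, and for Lrp1 -0.74 and -0.90. These deviations describe 8 libraries and were not tested.

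The other genes of the same processes were read from lists of scavenger receptors, lipoprotein receptors, carriers, droplet proteins, enzymes and nuclear receptors. Counted once each, 93 of 130 genes were tested, and 37 rose and 20 fell, and the median log2 fold change was 0.11 (background percentages as above). Of 12 other scavenger receptors tested, 7 rose and 2 fell, with a median of 0.36. Colec12, a collectin-type scavenger receptor, fell from 300.5 ± 24.5 to 35.6 ± 10.95 (log2 -3.10, limma adjusted p = 8.50e-07). Cd5l, a secreted scavenger protein of macrophages, rose from 918 ± 48.0 to 1556 ± 63.2 (log2 0.76). Cd68, a lysosomal scavenger glycoprotein, rose from 16391 ± 879 to 24307 ± 887 (log2 0.57). Mrc1, the mannose receptor, rose from 3542 ± 241 to 5321 ± 94.2 (log2 0.59).

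Of 17 lipoprotein receptors and lipase partners tested, 7 rose and 5 fell, and the median log2 fold change was -0.03. Mylip, a ubiquitin ligase, rose from 649 ± 26.6 to 1467 ± 105 (log2 1.17, limma adjusted p = 1.99e-07). Lrp12, a more distant relative, rose from 1219 ± 125 to 2209.8 ± 153 (log2 0.86), and Angptl2, a secreted angiopoietin-like protein, fell from 1169.9 ± 105 to 626 ± 60.3 (log2 -0.90). Lipa, the lysosomal lipase that digests lipoprotein lipid, stood at 26699 ± 2363 and 26079 ± 2376 (adjusted p = 0.759 by limma).

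Of 14 other fatty acid carriers and activating enzymes tested, 3 rose and 7 fell, with a median of -0.18. Acsl1, which couples long-chain fatty acids to coenzyme A, fell from 1438 ± 92.1 to 743 ± 62.2 (log2 -0.95, limma adjusted p = 2.40e-06), the opposite direction to Fabp5. Cav1, the caveolar coat protein, fell from 75.2 ± 12.97 to 23.6 ± 22.2 (log2 -2.01, adjusted p = 0.00555), at low counts. Its double knockouts read 56.3, 16.1, 15.0 and 6.82, so that library 1 carried much of the mean and SD. Without that library the mean was 12.6 ± 5.06 (n = 3) and the log2 fold change -2.55 (limma adjusted p = 0.000186). Fabp1, Fabp2 and Fabp6, carriers of liver and gut, had no read in any library.

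Of 11 other droplet coat and assembly genes tested, 7 rose and none fell, with a median of 0.26. With the replicate number as a block, 4 rose, and by edgeR on recovered reads 5 did. Some of the 7 calls were marginal: the weakest had a limma adjusted p of 0.0498, and its groups overlapped. Beside Plin3, Hilpda, a small droplet protein that restrains the lipase Pnpla2, rose from 110.8 ± 25.1 to 335 ± 28.4 (log2 1.61, limma adjusted p = 7.10e-06). Bscl2, which encodes seipin of droplet budding, rose from 1358 ± 76.1 to 1677 ± 96.3 (log2 0.30), and Rab18, a droplet-associated GTPase, from 2734 ± 101 to 3199 ± 136 (log2 0.23). Plin5, the perilipin of heart, muscle and liver, and the droplet fusion genes Cidea and Cidec had no read.

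Of 15 genes of neutral lipid synthesis tested, 6 rose and 1 fell, with a median of 0.34. Soat1, which makes cholesteryl ester for storage, rose from 4327 ± 442 to 5889 ± 749.7 (log2 0.44, limma adjusted p = 0.00304). The phospholipid precursor acyltransferases Agpat3 and Agpat1 rose by 0.38 and 0.42 on the log2 scale, and Agpat5 fell by 0.50. Of 12 genes of neutral lipid breakdown tested, 4 rose and 2 fell, with a median of 0.04. Pnpla2, the first triglyceride lipase of droplets, rose from 1311 ± 23.0 to 1559.8 ± 70.5 (log2 0.25, adjusted p = 0.00612), while its activator Abhd5 fell from 1613 ± 189 to 938 ± 113 (log2 -0.78, adjusted p = 9.51e-05 by limma). Pnpla7, a lysophospholipase, rose by 0.79, and Abhd12, another lysophospholipid lipase, fell by 0.18 on the log2 scale.

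Of 13 PPAR and liver X receptors and partners tested, 3 rose and 3 fell, with a median of -0.03. Pparg itself fell from 597 ± 93.0 to 414 ± 23.6 (log2 -0.52, limma adjusted p = 0.00307), with controls between 504 and 721 and double knockouts between 392 and 437. Rxra, the partner with which these receptors bind DNA, rose from 1699.8 ± 98.7 to 3205 ± 170 (log2 0.91, adjusted p = 4.57e-07 by limma). Nr1h2, the liver X receptor beta, rose by 0.30 and the coactivator gene Ncoa3 fell by 0.28 on the log2 scale, the latter not passing without double knockout 3 (adjusted p = 0.0515 by limma). Nr1h3, the liver X receptor alpha, stood at 379 ± 30.9 and 406 ± 42.4, and Ppard at 249.6 ± 13.6 and 258 ± 11.7. Of the genes named above as targets of PPAR or liver X receptors, Cd36, Fabp4 and Plin2 rose, Lpl fell and Pltp did not pass. These few belong to the gene set studied here. Other targets of either kind of receptor, in the lists or outside them, were not marked or counted. The calls therefore do not show how the targets of either kind moved as a group. Any link of the changes in these genes to the levels of the receptor transcripts was not tested.

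**Figure D5:**
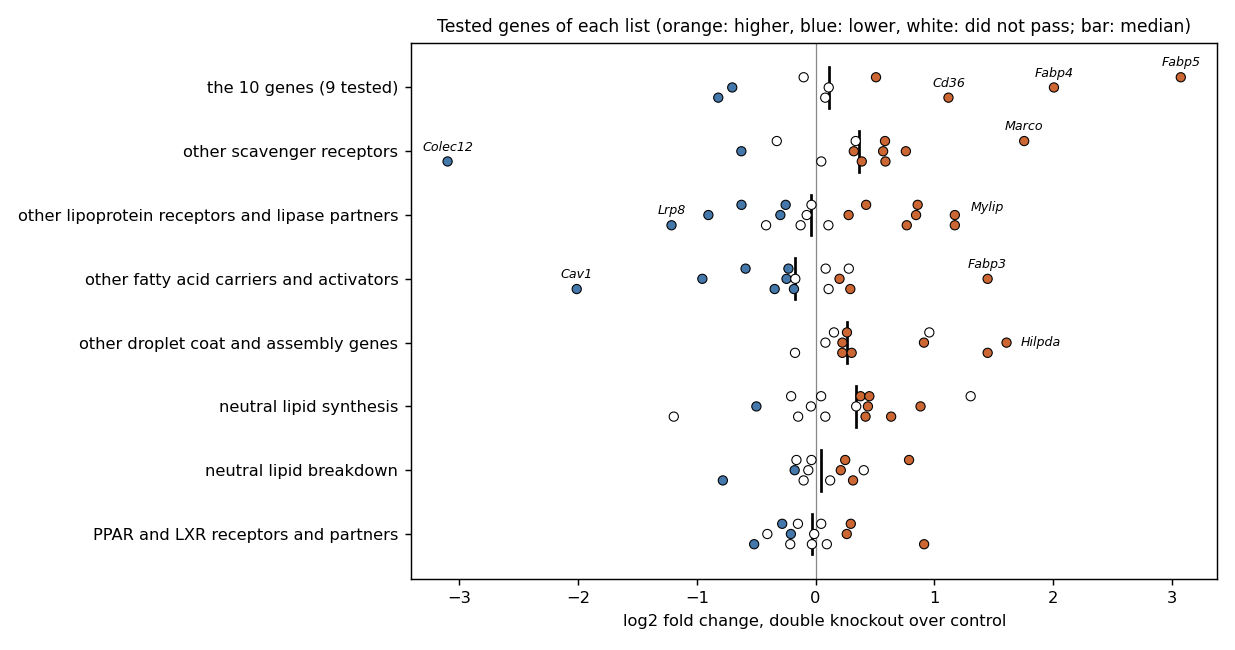
Log2 fold change (horizontal axis, double knockout over control) of every tested gene in the 10-gene set and in 7 lists of related genes (rows). Orange points are higher and blue points lower at an adjusted p under 0.05, white points did not pass, and the vertical bar is the list median. Fabp5 lies at 3.08 and Colec12 at -3.10, and the droplet row has 7 orange and no blue points.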

How the data were processed

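The deposited table gives 1 value per gene and library, a signal made of read counts that the authors divided by 1 size factor per library. The submitters' processing notes name Salmon 1.4.0, DESeq2 and build mm10; the labels name no annotation. Libraries of polyadenylated RNA were read as pairs of 150 bases, per the labels. Size factors (0.901 to 1.04) were undone, and 100% of the values above 0 came out whole within 0.01 in each library. These reads served for depth and for count models.

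The 11675 genes that reached 10 in 4 or more libraries entered limma 3.58.1 (R 4.3.3) on the log2(value + 1) scale (two-sided, trended prior, robust, genotype as the sole term), so that fold changes of low genes are understated. P-values were adjusted by Benjamini-Hochberg over all tested genes, with 0.05 as threshold. Fold changes without "log2" are ratios of group means. Single ratios were compared by exact permutation over 70 regroupings (scipy 1.17.1). Alternatives included edgeR 4.0.16 and DESeq2 1.42.0 on recovered reads. The limma step was tested on simulated data.

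The genes and lists were chosen with earlier results of these data known. All 10 genes, up to 4 genes per list with the smallest adjusted p, and Pparg were named by rule. A gene that the rule selects is not reported here. Other genes named (Fabp neighbours, Lrpap1, Lipa, Nr1h3, Ppard, Ctsa and genes without reads) were added for their role or position. Same-numbered libraries did not deviate together (correlations -0.0535, 0.0316, -0.0363 and -0.0430), so no pairing by number was used. With so few libraries per group, this cannot exclude a pairing or a shared batch. Similar transcripts were sought with blastn 2.17.0. Ldaf1 was not matched to a row.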

Additional observations from a re-analysis of the deposited data

Results flagged for a closer look

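In 4 of 20 groups of 4 libraries (10 genes in 2 genotypes), 1 library lay far from the other 3. The cutoff flags about 1 in 20 groups of independent, normally distributed values. These groups share the same libraries, and Vldlr held few reads, so that rate is no measure of what to expect here. Double knockout 1 held 14476 normalized reads of Lrp1, above 11554 to 11895 in the other 3. Without it the log2 fold change of Lrp1 was -0.89 in place of -0.82. Control 4 held 1650.0 of Fabp5, below 1899 to 1947 in the other 3, and the log2 fold change without it was 3.02 in place of 3.08. The remaining 2 are Vldlr, with 12.5 in control 4 and 4.85 in double knockout 1, where the other libraries of each group held at most 1.11 and 0. These are counts of a few reads.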

How the results depend on the processing

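Over 21 other settings, Cd36, Fabp4, Fabp5 and Plin2 were called higher and Lpl and Lrp1 lower in all 21, with log2 fold changes of 1.002 to 1.19, 1.87 to 2.15, 3.02 to 3.12, 0.42 to 0.52, -0.86 to -0.65 and -0.90 to -0.74. Msr1 passed in 1 (0.14 without control replicate 4) and Scarb1 and Pltp in none. With 1 library left out, 4 to 5 of the 10 genes were higher and 2 lower, and over all genes 2277 to 2616 were higher and 2392 to 2717 lower. Of the 130 other pathway genes, 32 to 37 were then higher and 16 to 20 lower. The 20 that fell became 13 with double knockout pairs averaged (1 and 2, 3 and 4) and 11 with double knockouts 1 and 2 only, settings with fewer samples. With the replicate number as a block, although no pairing by number was seen, 2215 genes were higher and 2434 lower (2671 and 2773 without). The droplet list then had 4 higher in place of 7, and the breakdown list 1 lower in place of 2. No control correlated best with the double knockout of its own number. Of 43 other tested genes that are named, 38 passed, none of these turned direction in the 21 settings, and 27 passed in all 21. The targeted gene Cdk8 (log2 -0.35, limma adjusted p = 0.0374) passed in only 10 of the 21, as did Impa1. Lrp5 passed in 14, Abhd12, Ncoa3 and Lrpap1 in 17, Zfand1 in 19, and Bscl2, Rab18, Ctsa and Cav1 in 20. Among the named genes that did not pass in the main fit, Lipa, Ppard and Lrp4 changed sign in some settings. Cav1 did not pass with double knockouts 1 and 2 only, at -1.27. Quantile normalization moved the median gene to 0.05. The Fabp5 share by longest transcript was 43.8% ± 3.06 and 87.2% ± 1.24. The longest transcripts of Fabp5 (3238 bases) and Fabp4 (4231) also span most of their loci, so this is no check on retained introns. Depth was lowest for Vldlr, at 20 reads in all, and Fabp4, at 1416.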

Other observations

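A few further genes of the lists had large differences and are named here after their values were seen. Marco, a class A scavenger receptor like Msr1, read 62.4 ± 22.0 in controls and 205 ± 28.2 in double knockouts (n = 4 each, log2 1.76, limma adjusted p = 0.00011). Among relatives of Lrp1, Lrp6 rose from 1174 ± 173 to 1984 ± 65.9 (log2 0.77) and Lrp11 from 228 ± 39.4 to 407 ± 31.7 (log2 0.85). Lrp8, a receptor for apolipoprotein E and reelin, fell from 639 ± 129 to 273 ± 35.3 (log2 -1.21). Lrp5 fell from 1179 ± 80.0 to 989.99 ± 64.7 (log2 -0.25), and did not pass without control 2, control 3 or double knockout 4 (limma adjusted p = 0.0627, 0.0502 and 0.0608). Lrp10 stood at 2953 ± 263 and 2797 ± 90.8 and Lrp4 at 176 ± 18.1 and 189 ± 16.7, and neither passed. The Lrp genes thus included members that rose, fell and did not pass.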
